A study of Mus musculus with 10 samples.

Results

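Xirp1, Xirp2, Nexn, Nrap, Cmya5, Flnc, Myot, Synpo, Synpo2 and Synpo2l encode the Xin repeat proteins, filamin C, the synaptopodins and actin-binding proteins found with them in striated muscle. They were chosen by symbol, and all 10 were among the 23337 genes of the count tables, each with counts in all 10 libraries. The libraries are bulk poly(A) RNA-Seq of left ventricle (LV) and skeletal muscle (SkM, a muscle that the labels do not name) from 5 mice aged 17 weeks. The age is taken from the study, where a legend gives it for LVs with 5 mice per genotype. Of these mice, 2 were wild type (WT) and 3 were E0del/+, which carry on 1 Ttn allele a CRISPR/Cas9 deletion of E0, an element in intron 1 of the titin gene. All were C57BL/6/129SvEv hybrids, bred from C57BL/6 E0del/+ and 129SvEv WT parents. The replicate number equals the batch tag of the labels, so batch 3 holds 1 mouse, an E0del/+ one. Library totals ran from 11010021 to 17484873 counts.

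Z-discs anchor the thin filaments of a sarcomere, and in heart the last sarcomere of a cell ends at the intercalated disc, in skeletal fibres at the myotendinous junction. Xin repeat proteins bind and bundle actin at these ends, and filamin C crosslinks actin at Z-discs and under the membrane, where its stretched or damaged form is taken up by chaperone-assisted autophagy with the help of synaptopodin 2. Myotilin binds alpha-actinin and filamin C at the Z-disc, and variants in the human genes for filamin C, myotilin and nexilin are known from myopathies or cardiomyopathies.

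Ttn, the gene that carries the deletion, stood in LV at 7959 and 9344 CPM (counts scaled to the library total) in WT replicates 1 and 2, and at 7737, 5560.1 and 6597 CPM in E0del/+ replicates 1, 2 and 3. In SkM the same mice gave 24204.5 and 15856 CPM for WT and 20092, 18854 and 13585 CPM for E0del/+. The LV values of E0del/+ all lay below those of WT, as they did for 6.53% of genes tested, and the SkM groups overlapped. Of the WT values in LV, 9344 CPM is from replicate 2, the library set apart below. Against WT replicate 1 alone the gap was narrow, 7959 to 7737 CPM. Exon counts do not show a deletion within an intron, so these values check the genotype in no direct way. Markers of the labelled tissues were present: the 7 ventricular cardiomyocyte genes summed to between 64945 and 94436 CPM in LV and to between 175 and 2208 CPM in SkM, with Myh6 the most abundant in LV and Actc1 in SkM. The 9 fast fibre genes, led by Myh4, summed to between 158499 and 168576 CPM in SkM and to between 156 and 179.7 CPM in 4 of the LV libraries. WT LV replicate 2 stood apart, with 39188 CPM of fast fibre transcripts, 18473 CPM of Myh4 and 279 CPM over the 5 adipocyte genes, against 1.83 to 23.7 CPM of the latter in the other LV libraries. Its mouse was therefore left out of the comparison of tissues, and its LV values are given apart.

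The gene models of the members differ in build (mm10, exons as deposited). Xirp1 lies on the minus strand at chr9:120013755-120023598 with 3 exons, and its largest exon, of 3394 bp, holds 98.6% of the coding bases in GENCODE M21. Xirp2, on the plus strand at chr2:67446002-67526606, has 9 exons and a largest exon of 9265 bp with 81.5% of the coding bases. Cmya5, on the minus strand at chr13:93040715-93144724, has 13 exons, of which the largest (9310 bp) holds 84.4% of the coding bases. The largest exon also holds 78.5% of the coding bases in Synpo and 73.9% in Synpo2l. Flnc has 48 exons over chr6:29433153-29461888 (plus strand), and Nrap 42 exons over chr19:56320041-56390035 (minus strand). Nexn is at chr3:152236984-152266320 (minus), with 13 exons. Synpo2 lies at chr3:123076519-123236149 (minus) and Synpo2l at chr14:20659418-20668306 (minus). Of the exon bases of Cmya5, 2451 (20.7%) are shared with A630019I02Rik on the other strand, and how reads there were assigned is not given in the sources used here.

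RefSeq promoter windows (GRCm38.p6, 250 bases before to 50 after a start) matched 6 of the 10 members with 8 windows, and Xirp1, Nexn, Myot and Synpo are named only. A script searched both strands for the 10-base MEF2 motif, which carries ambiguous bases and can overlap TATA-like runs, and found it in 4 windows of 3 members (Xirp2, Synpo2 and Synpo2l), against 3.19% of all 32851 windows. The CArG box (1.63% of all windows) was in none of the members' windows. CATTCC, the MCAT motif (14.7% of all windows), was in both Flnc windows, which overlap each other and may share the match. The GATA motif AGATAA (11.2%) was in the window of Cmya5. The letters TATAAA (13.6%) were found for Synpo2 only on the other strand and within its MEF2 match, so the same bases gave both motifs. The E-box CANNTG was in 72.3% of all windows. The 250 bases before the start are printed for Xirp2 and Synpo2, both several times higher in SkM, and for Synpo2l, with close CPM in the tissues, to set the same motif beside unlike levels. They run 5′ to 3′ on the gene's strand, from chr2:67445752-67446001 (plus), chr3:123236150-123236399 (minus) and chr14:20668355-20668604 (minus), and capitals mark the MEF2 match.
Xirp2: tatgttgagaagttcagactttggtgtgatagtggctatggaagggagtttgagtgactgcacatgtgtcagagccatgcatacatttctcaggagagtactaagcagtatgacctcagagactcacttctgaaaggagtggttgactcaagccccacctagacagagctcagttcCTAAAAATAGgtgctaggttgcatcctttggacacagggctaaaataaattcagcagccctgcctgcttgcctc
Synpo2: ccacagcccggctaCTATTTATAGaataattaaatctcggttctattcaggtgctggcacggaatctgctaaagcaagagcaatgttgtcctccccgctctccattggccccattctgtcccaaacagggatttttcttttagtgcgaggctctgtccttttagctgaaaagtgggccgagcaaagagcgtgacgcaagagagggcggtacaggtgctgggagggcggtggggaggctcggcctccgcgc
Synpo2l: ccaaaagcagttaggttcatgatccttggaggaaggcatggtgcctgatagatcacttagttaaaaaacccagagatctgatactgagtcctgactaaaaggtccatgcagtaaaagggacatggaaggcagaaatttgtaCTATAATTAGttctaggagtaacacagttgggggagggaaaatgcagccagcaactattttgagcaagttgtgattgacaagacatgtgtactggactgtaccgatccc
The match begins 74 bases before the start in Xirp2, 236 in Synpo2 and 109 in Synpo2l. It is a description of letters and no evidence of binding.

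Per kb of summed exon length, Nrap, an anchoring protein of assembling myofibrils, was the highest member in LV at 300.2 ± 64.2 CPM per kb (SD, n = 4), followed by Nexn, the actin-binding protein nexilin, at 200.5 ± 18.9. Flnc (115 ± 23.9), Cmya5 (97.2 ± 22.9) and Xirp1 (92.1 ± 25.3) came next, with ranges that overlapped from each to the following one. Synpo2l stood at 63.6 ± 6.01, Xirp2 at 56.7 ± 16.5, Synpo at 27.2 ± 3.48, Myot at 24.5 ± 9.18 and Synpo2 at 20.5 ± 5.50 CPM per kb. Among neighbours in this order, ranges were separate between Nrap and Nexn, Nexn and Flnc, and Xirp2 and Synpo.

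The order in SkM was another one. Nrap (466 ± 121 CPM per kb, SD, n = 5), Cmya5 (454 ± 55.0) and Myot (404 ± 43.8) led, and Nrap exceeded Cmya5 in 2 of 5 libraries. Xirp2 stood at 269.9 ± 73.3, Flnc at 154 ± 66.2 and Nexn at 141 ± 29.0 CPM per kb. The lowest levels were those of Synpo2 (83.2 ± 9.54), Synpo2l (66.7 ± 5.61), Xirp1 (42.7 ± 28.4) and Synpo (28.7 ± 2.71). Ranges of neighbours were separate between Myot and Xirp2 and between Nexn and Synpo2. The 10 genes took 0.475% to 0.801% of all counts in the LV libraries and 1.17% to 1.88% in the SkM libraries.

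**Figure D1:**
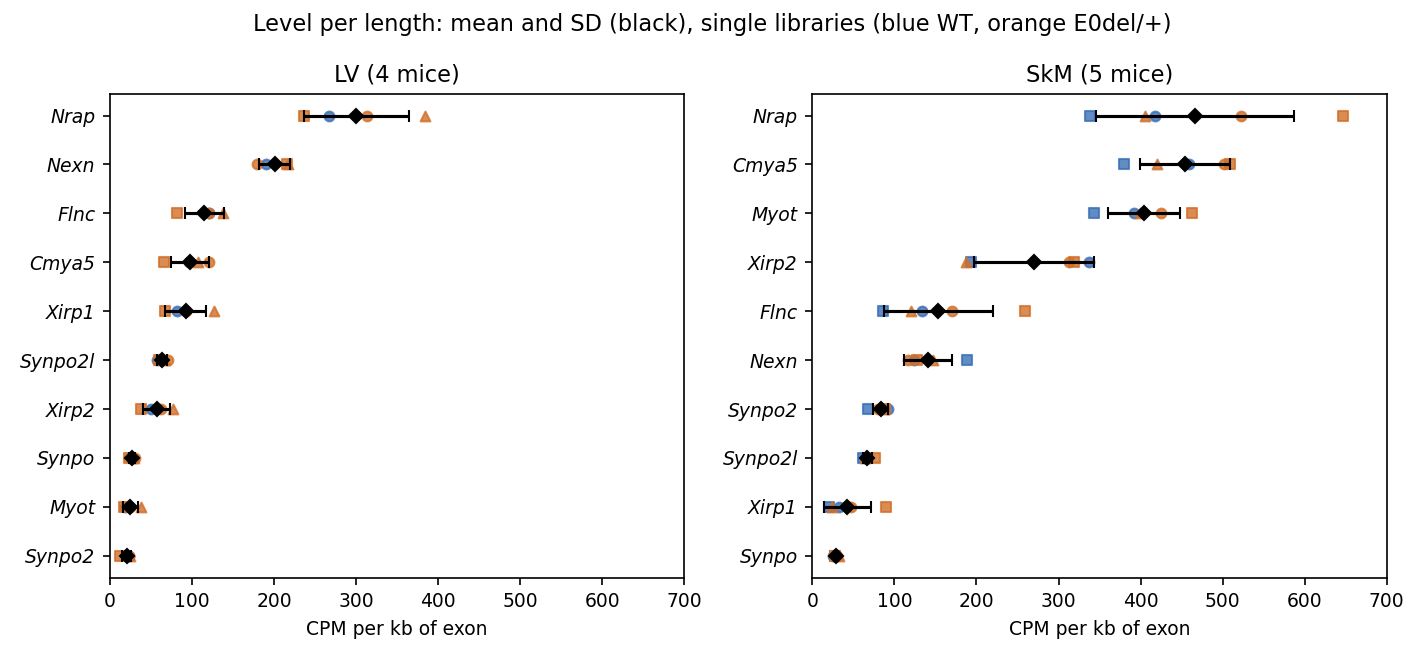
Level of each member in CPM per kb of summed exon length (linear axis) in LV (4 mice) and SkM (5 mice), with mean and SD in black and single libraries in blue (WT) or orange (E0del/+), as circles, squares and triangles for replicates 1, 2 and 3. Nrap had the highest mean in both tissues, though in SkM Cmya5 lay above it in 3 of 5 libraries, while Myot, 9th of 10 in LV at 24.5 CPM per kb, was among the 3 highest in SkM at 404 CPM per kb.

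Between tissues, 8 of the 10 members passed the threshold (adjusted p under 0.05 over all genes tested, 4 mice with the mouse as a block), all of them higher in SkM. The background was high, since 61.3% of 13375 genes passed, 29.8% as higher in SkM and 31.5% as higher in LV. Fold changes rest on TMM scaling, which sets the bulk of genes to no change. With plain library totals the median log2 fold change of all genes moved from -0.02 to -0.67, a shift of 0.65, and the called genes split 18.1% higher to 81.9% lower in SkM in place of 48.7% to 51.3%. The members' median was 1.27 with TMM and 0.62 with totals. By totals, 6 members passed, 5 as higher and Nexn as lower, and with all 5 mice 8 passed. In bulk tissue, fewer cells of a type and less RNA per cell cannot be told apart.

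**Figure D2:**
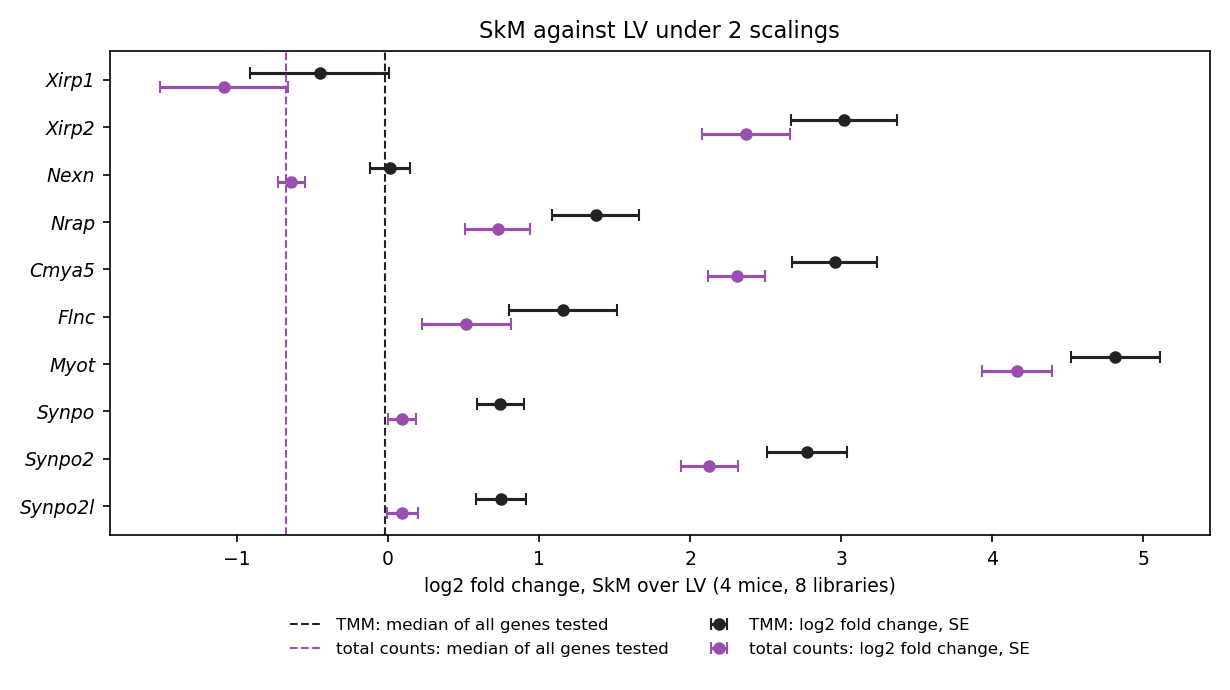
Log2 fold change of SkM over LV for each member with its SE (4 mice, 8 libraries), under TMM and under total counts, with the median of all genes as dashed lines. All members but Xirp1 and Nexn lay above 0 under both scalings, of which Flnc, Synpo and Synpo2l passed the threshold with TMM only, and Nexn moved from 0.01 to -0.64.

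Myot, the Z-disc protein myotilin, differed most. Its LV level was 40.0 CPM in WT replicate 1 and 54.9, 38.8 and 82.4 CPM in E0del/+ replicates 1, 2 and 3, and its SkM level in those mice was 864, 937, 1021 and 882 CPM. Each SkM value lay at least 10.7 times above the LV value of its mouse, with no overlap. The fitted log2 fold change was 4.81 (SE 0.29, adjusted p 1.04e-05, higher in 4 of 4 mice), or 4.16 by totals. WT LV replicate 2 had 266 CPM, above the other LV libraries, and a SkM to LV ratio of 2.85 in its mouse (SkM 758 CPM). Its fast fibre sum of 39188 CPM moves with this value, and its part in the result was not tested.

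The Xin repeat genes went separate ways. Xirp2 stood in LV at 603 CPM in WT replicate 1 and at 746, 453 and 914 CPM in E0del/+ replicates 1, 2 and 3, and in SkM at 4042, 3746, 3813 and 2248 CPM. The tissues did not overlap, and the log2 fold change was 3.02 (SE 0.35, adjusted p 0.000232, higher in 4 of 4 mice). Xirp1 stood in LV at 480.1, 541, 391 and 739.6 CPM in the same order of mice and in SkM at 189, 276, 525 and 137 CPM. SkM was lower in 3 of these 4 mice and higher in E0del/+ replicate 2, so the ranges overlapped, and the log2 fold change of -0.45 (SE 0.46, adjusted p 0.422) did not pass. By totals it was -1.09 (SE 0.42, adjusted p 0.0540) and did not pass either. Without E0del/+ replicate 2 it was -1.02 and passed (adjusted p 0.0210), and without E0del/+ replicate 3 its sign turned, at 0.02 (adjusted p 0.965), the 2 ends of the range of adjusted p over the alternatives. In the mouse set apart, WT replicate 2, Xirp2 was at 1163 CPM in LV and 2308 in SkM, and Xirp1 at 359 and 118 CPM.

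As a ratio per kb within a library, Xirp2 over Xirp1 was 0.613, 0.672, 0.564 and 0.603 in the LVs of WT replicate 1 and E0del/+ replicates 1, 2 and 3, and 10.4, 6.62, 3.54 and 7.98 in their SkM. Xirp1 was thus the more abundant of the pair in these 4 LVs, and Xirp2 in all 4 SkM libraries, and a ratio does not depend on the scaling of a library. The log2 ratio rose by 3.44 ± 0.62 (SD, n = 4) from LV to SkM, in 4 of 4 mice, with an exact sign permutation p of 0.13, two-sided and the smallest that 4 mice allow (0.25 after Benjamini-Hochberg adjustment over the 12 tests of 4 ratios). WT replicate 2 had ratios of 1.58 in LV and 9.51 in SkM.

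Flnc, which encodes filamin C, was higher in SkM with a wide spread. Flnc was at 1110.2 CPM in the LV of WT replicate 1 and at 1106, 743 and 1258 CPM in those of E0del/+ replicates 1, 2 and 3, and at 1222, 1562, 2373 and 1100.3 CPM in SkM. The tissues overlapped, and 3 of 4 mice were higher in SkM by CPM. Its log2 fold change of 1.16 (SE 0.36, adjusted p 0.0244) fell short without E0del/+ replicate 1 (1.20, adjusted p 0.0546) and by totals (0.52, adjusted p 0.153), with a range over the alternatives of 0.000788 to 0.153. Without E0del/+ replicate 2, whose SkM library was the highest, it was 0.71. WT replicate 2 had 1023 CPM in LV and 785 CPM in SkM. Among the 3 filamins, compared per kb, Flnc made up 61.0%, 67.2%, 48.7% and 72.7% in the LVs of these mice and 84.0%, 89.6%, 95.2% and 86.4% in their SkM. The share was higher in SkM in each mouse, while Flna, the filamin of most cell types, ran from 40.7 to 67.7 CPM per kb in LV and from 10.9 to 21.9 in SkM. The 6 smooth muscle genes (most abundant Smtn) summed in these mice to 499 to 764 CPM in LV and 207 to 255 CPM in SkM, and the 4 endothelial genes (most abundant Cdh5) to 982 to 1697 and 160.3 to 200.2 CPM, and their part in the share was not tested.

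Relative to Xirp1, which binds filamin C, Flnc gave ratios per kb of 1.47, 1.30, 1.21 and 1.08 in LV and 4.11, 3.61, 2.88 and 5.10 in SkM. All SkM ratios lay above all LV ratios, with a log2 difference of 1.61 ± 0.43 (SD, n = 4; exact sign permutation p 0.13, adjusted 0.25). The ratios of WT replicate 2 were 1.82 and 4.22.

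Of the synaptopodins, Synpo2 was the member with a clear excess in SkM. In LV it stood at 162 CPM in WT replicate 1 and 162, 87.7 and 172 CPM in E0del/+ replicates 1, 2 and 3, and in SkM at 652, 571, 632 and 621 CPM. The groups were far apart, with a log2 fold change of 2.77 (SE 0.26, adjusted p 8.49e-05, higher in 4 of 4 mice), and WT replicate 2 had 279 and 483 CPM. Synpo, the synaptopodin of kidney podocytes and dendritic spines, ran from 164 to 219 CPM in these LVs and from 179 to 231 CPM in SkM. Synpo2l, a Z-disc relative in heart and skeletal muscle, ran from 225 to 276 and from 250.2 to 299 CPM. Both overlapped between tissues and were higher in SkM in 2 of 4 mice by CPM and in 4 of 4 after TMM. They passed with TMM at 0.74 (SE 0.16, adjusted p 0.00442) and 0.75 (SE 0.16, adjusted p 0.00568) and did not by totals, at 0.09 and 0.10 (adjusted p 0.403 and 0.436, the highest of alternatives that began at 3.32e-05 and 6.03e-05). Other genes of podocytes and neurons were near absent: Nphs1 was at 0 in all LVs and at most at 0.308 CPM in SkM, Syn1 did not pass 1.73 CPM and Snap25 did not pass 0.0908 CPM in any library. Synpo at 164 CPM or more therefore stood beside almost no transcripts of these 3 genes.

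Within a library, Synpo2 over Synpo2l per kb was 0.396, 0.324, 0.206 and 0.362 in the LVs of WT replicate 1 and E0del/+ replicates 1, 2 and 3, and 1.42, 1.20, 1.17 and 1.37 in SkM. Synpo2l was the more abundant in these LVs and Synpo2 in SkM, with a log2 difference of 2.04 ± 0.31 (SD, n = 4; exact sign permutation p 0.13, adjusted 0.25). WT replicate 2 gave 0.743 and 1.10.

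Cmya5, or myospryn, a large binding partner of desmin and of protein kinase A, rose from 1137 CPM in WT replicate 1 and 1423, 785 and 1264 CPM in E0del/+ replicates 1, 2 and 3 to 5445, 5944, 6029 and 4969 CPM. The tissues were separate in these 4 mice, at a log2 fold change of 2.96 (SE 0.28, adjusted p 8.34e-05, higher in 4 of 4). Nrap went from 1467, 1723, 1300.2 and 2112 CPM to 2293, 2874, 3554 and 2227 CPM. Its ranges were also separate, though by little in E0del/+ replicate 3, where SkM exceeded LV by a ratio of 1.05, and its log2 fold change was 1.37 (SE 0.29, adjusted p 0.00441, higher in 4 of 4 mice). By totals Nrap came to 0.73 and still passed. In the mouse set apart, Cmya5 had 2167 and 4493 CPM and Nrap 1887 and 1859 CPM in LV and SkM.

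Nexn, needed in heart for the junctions of T-tubules with the sarcoplasmic reticulum, ran the other way on the CPM scale. It stood at 487, 459, 554 and 556 CPM in the LVs of WT replicate 1 and E0del/+ replicates 1, 2 and 3, and at 317, 299, 328 and 377 CPM in their SkM. All LV values lay above all SkM values, as they did for 56.7% of all genes tested, while 12.7% had SkM wholly above LV, the 5 members Xirp2, Nrap, Cmya5, Myot and Synpo2 among them. The log2 fold change was 0.01 with TMM (SE 0.13, adjusted p 0.938, higher in 1 of 4 mice) and -0.64 by totals (adjusted p 0.000699, range over the alternatives 0.000699 to 0.987), close to the median of all genes under either scaling. WT replicate 2 had 455 and 484 CPM, the only mouse of the 5 with more Nexn in SkM by CPM. Over Myot, Nexn gave ratios per kb of 10.5, 7.20, 12.3 and 5.81 in LV and 0.316, 0.274, 0.276 and 0.368 in SkM, a log2 difference of -4.81 ± 0.63 (SD, n = 4; exact sign permutation p 0.13, adjusted 0.25). The pair changed order between the tissues in all 4 mice, and in WT replicate 2, with 1.47 and 0.549, as well.

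**Figure D3:**
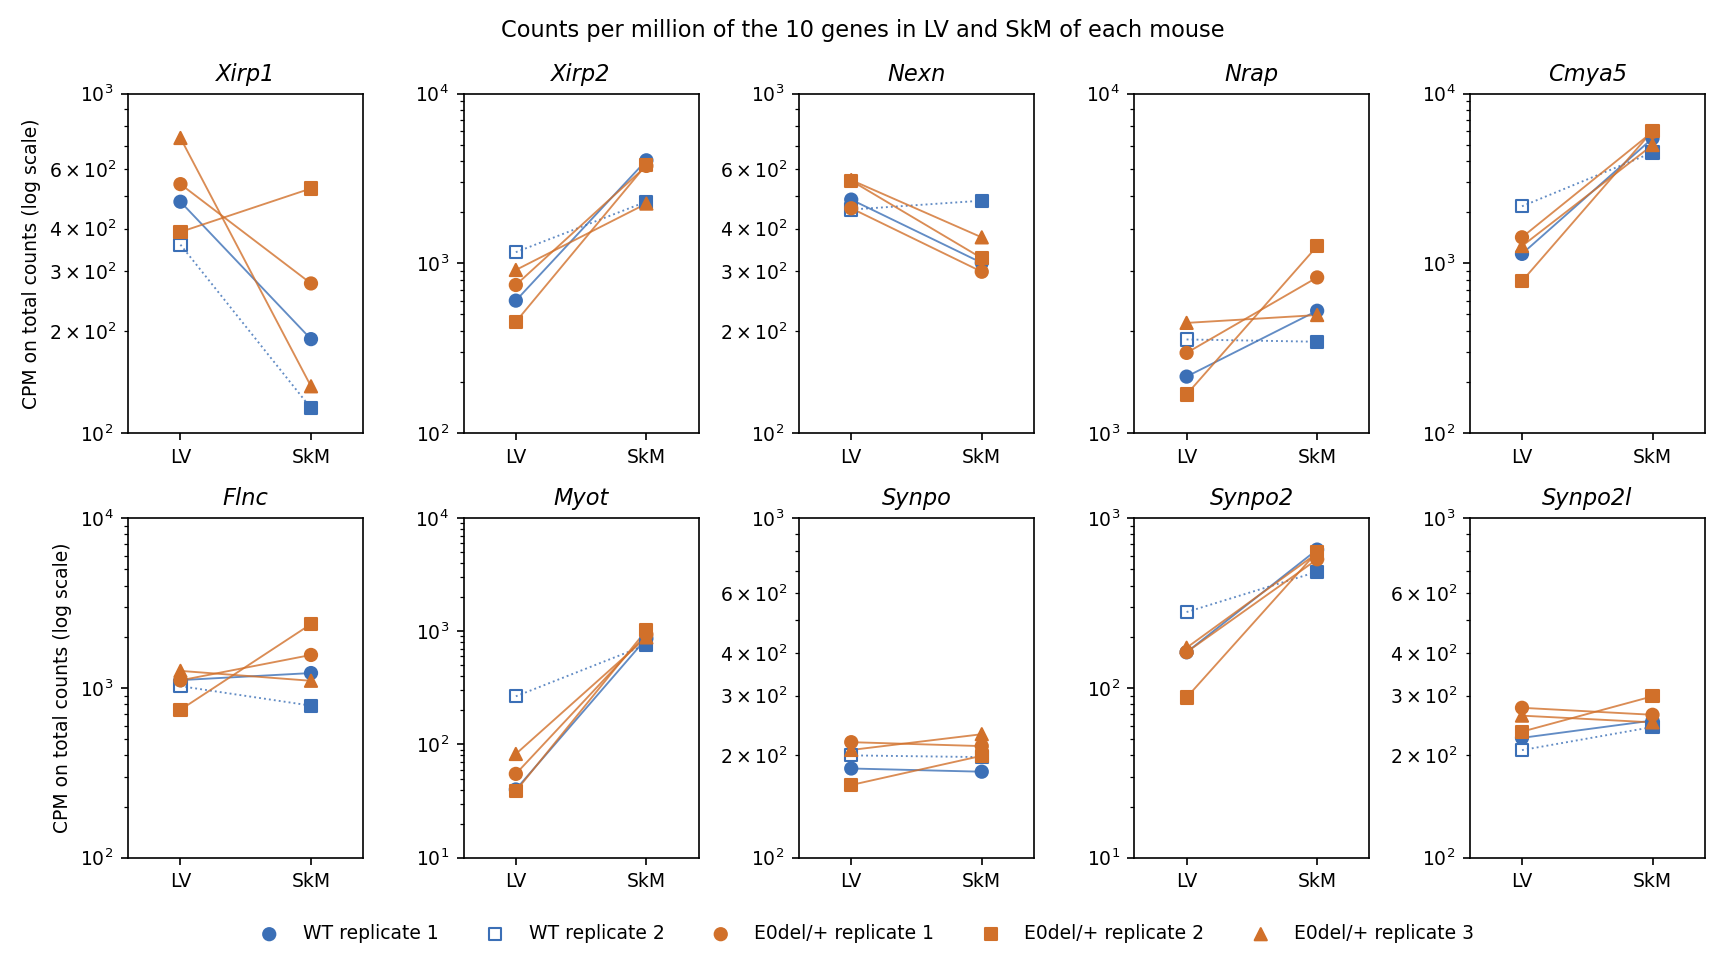
CPM of each member (log axis) in the LV and SkM of each mouse, with lines joining the tissues of 1 mouse, and a dotted line and hollow LV marker for WT replicate 2, whose SkM marker is filled. Myot rose in every mouse, from 38.8 to 82.4 CPM in 4 LVs to 864 to 1021 CPM in their SkM, and started from 266 CPM in WT replicate 2.

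Genes that work with the members divided between the tissues. Of 19 partners of filamin C and Xin, 8 were higher and 8 lower in SkM (5 and 11 by totals), with a median log2 fold change of -0.01, against -0.02 for all genes. Myoz1, a fast-fibre Z-disc protein that binds filamin C, was higher by 10.49 (SE 0.24), Ldb3 (cypher) by 0.97 (SE 0.21), and Ctnnb1 (beta-catenin of the intercalated disc) stood at -0.44 (SE 0.13). Of 12 genes of chaperone-assisted autophagy, 3 were higher and 5 lower, and by totals 0 were higher and 9 lower. The counts of these lists stand beside a high background. Of all genes tested 61.3% passed, 29.8% as higher and 31.5% as lower in SkM, and by totals 81.9% of the called genes were lower. Hspb7, a small heat shock protein that binds filamin C, stood at -3.09 (SE 0.47), Sqstm1 (p62) at 0.74 (SE 0.15), and Hspa8 at 0.01 (SE 0.18) did not pass. The median of this list was -0.15, next to 1.16 for Flnc and 2.77 for Synpo2.

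Of 15 alpha-actinins and other Z-disc genes, 6 were higher and 7 lower (5 and 8 by totals), with a median of -0.24. Actn3 at 10.68 (SE 0.31) and Neb (nebulin) at 9.38 (SE 0.29) were higher in SkM, and Tcap (telethonin) at 0.49 (SE 0.23) did not pass. Of 12 injury and remodelling genes, 8 were higher and 3 lower (6 and 3 by totals), with a median of 3.41, and the 3 lower ones were Ankrd1 (-6.86, SE 0.82), Nppa (-6.29, SE 0.56) and Nppb (-7.22, SE 0.34), known stress genes of heart muscle. In the genotype fits, 6 of these 12 passed the filter on low counts in LV and 11 in SkM. The count of higher genes and the median thus rest in part on genes too low in LV to be tested there, and describe no change of the list as a whole. Of 6 myotendinous junction genes 5 were tested, 2 higher and 3 lower under both scalings, with a median of -0.67, Thbs4 at 2.19 (SE 0.31) and Itga7, a laminin receptor subunit, at -0.95 (SE 0.16). Ankrd1 (-6.86) is in this list too and counts among the lower genes of both lists.

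Among SkM libraries the members spread unequally. After TMM, Xirp1 had an SD of 0.84 on the log2 scale over 5 mice, larger than that of 97.4% of 7383 genes of at least 10 CPM, and Flnc one of 0.57 (94.2%), whereas Synpo2 (0.13), Cmya5 (0.14), Myot and Synpo2l (0.16 each) lay under the median gene (0.19). Without WT replicate 2 only Synpo2 (0.12) did after TMM, with Cmya5 at 0.16 and the median gene at 0.15. By CPM, added after seeing the data, Xirp1 was at 0.86 and Flnc at 0.60 over 5 mice, and 5 members lay under the median gene (0.18): Synpo2l (0.12), Synpo (0.14), Myot (0.16), Synpo2 (0.17) and, by little, Cmya5 (0.18). Also by CPM but without WT replicate 2, 5 members lay under it (0.15), Nexn (0.14) in place of Synpo (0.15). Xirp1 stood at 525 CPM in E0del/+ replicate 2, 276 in E0del/+ replicate 1, 189 in WT replicate 1, 137 in E0del/+ replicate 3 and 118 in WT replicate 2. Flnc followed the same order of mice, with 2373, 1562, 1222, 1100.3 and 785 CPM. The 5 slow fibre genes, of which Myh7 had the highest mean in SkM and Atp2a2 in LV, summed in that order to 2580.4, 2079.6, 1434, 349 and 174 CPM. By CPM this order was shared by 5 of 10 members (Xirp1, Nrap, Cmya5, Flnc and Synpo2l), by Myh7, Tnnt1, Tnni1 and Atp2a2, and by 229 genes, or 3.1% of the 7383. After TMM, an alternative chosen after seeing the data, only Xirp1 of the members kept it, next to the same 4 slow fibre genes and 3.52% of genes. It is an order seen in the data after the fact, and no test was made of it.

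The same mice divided by other values too. Xist was at 397, 364 and 278 CPM in the SkM of WT replicate 1 and E0del/+ replicates 1 and 2, and at 0.343 and 0.422 CPM in WT replicate 2 and E0del/+ replicate 3, so the mice with more slow fibre transcripts were those with Xist. Genes of at least 8000 bp of exon, relative to those under 2000 bp, stood lower in WT SkM replicate 2 by a median log2 value of -0.58, against 0.19 in WT replicate 1 and 0.27, 0.21 and -0.10 in E0del/+ replicates 1, 2 and 3. Adipocyte genes (5, led by Cfd) summed to 1122 and 1183 CPM in WT replicate 1 and E0del/+ replicate 3 and to 8.69, 281 and 147 CPM in WT replicate 2 and E0del/+ replicates 1 and 2. E0del/+ replicate 2, with the most Xirp1 and Flnc, also had 177 CPM of Ankrd2 and 214 CPM of Csrp3, stretch-responsive genes that stayed within 25.6 to 52.8 and 11.8 to 42.0 CPM in the other SkM libraries. The part of these differences in the members' spread was not tested.

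In LV after TMM, without WT replicate 2, 7 of 10 members had a larger SD than 95% of 9112 genes, led by Myot (0.61), Synpo2 (0.57) and Xirp2 (0.56), against a median of 0.18. By CPM, also added after seeing the data, 3 did so, Myot (0.50), Synpo2 (0.46) and Xirp2 (0.43). E0del/+ replicate 2 gave the lowest CPM for 8 of 10 members and E0del/+ replicate 3 the highest for 7. Relative to the mean of the other LVs after TMM, all 10 members were lower in the first (median log2 value -0.77) and all 10 higher in the second (0.54), though Nexn in the first was above WT replicate 1 and E0del/+ replicate 1 both by CPM (554) and after TMM (393 against 384 and 379). Both mice are E0del/+. How many of all genes were lowest or highest, or lower or higher, in these libraries was not counted, so these member counts have no background. The TMM factor, which divides the values, was 1.41 in E0del/+ LV replicate 2 and 1.15 in replicate 3. The endothelial sum was 1697 CPM in E0del/+ LV replicate 2 and 982 CPM in replicate 3, and the 4 fibroblast genes (Dcn highest by the LV mean) summed to 1331 and 698 CPM. The cardiomyocyte sum was 81163 and 94436 CPM, and long genes stood against short ones at -0.19 and -0.05, and the part of these values was not tested.

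**Figure D4:**
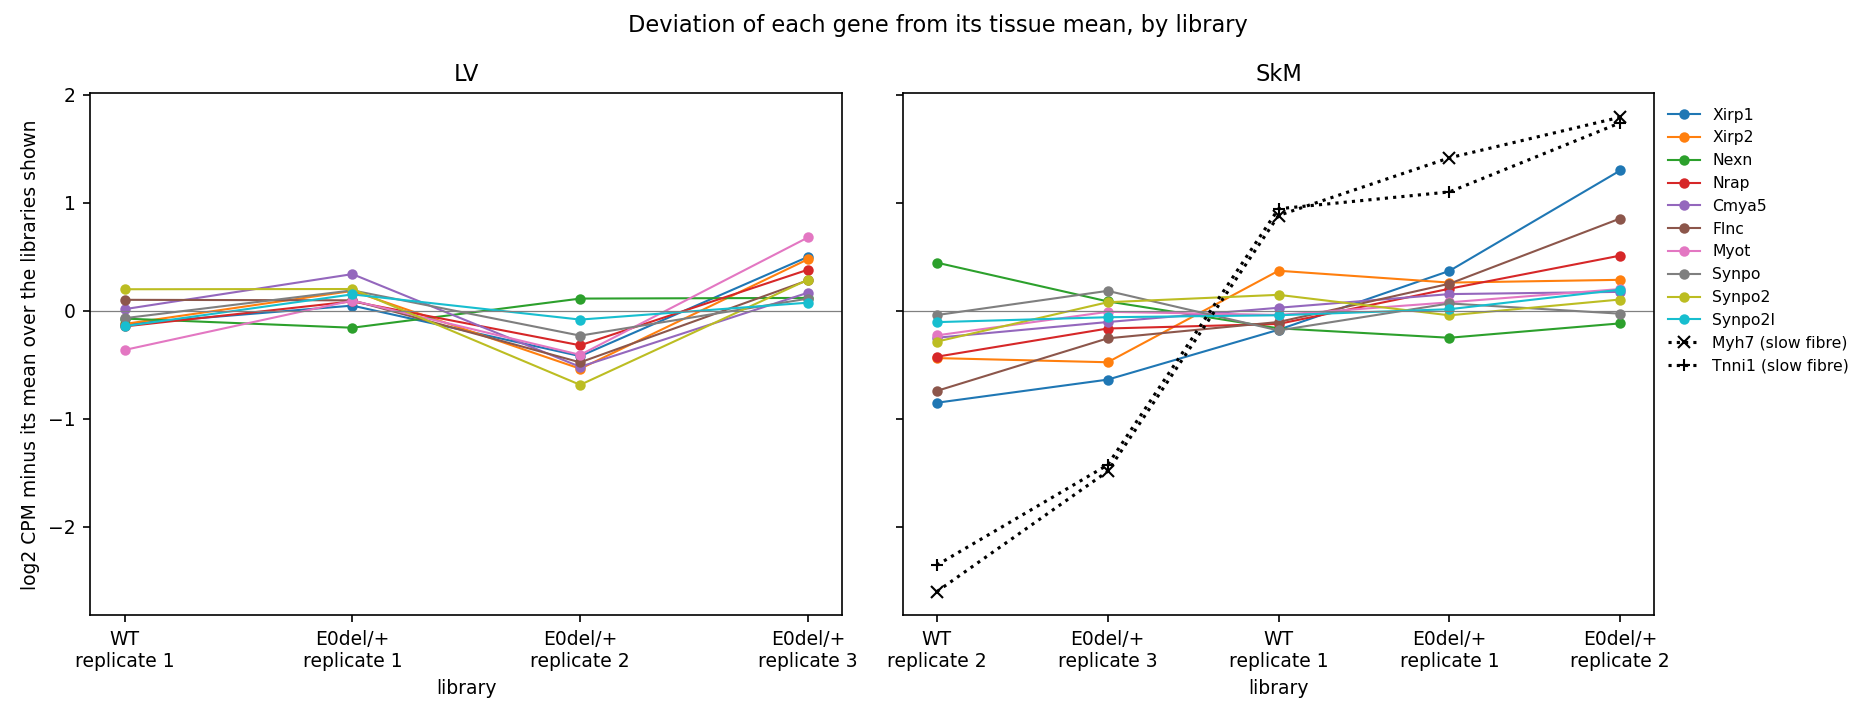
Log2 deviation of each member from its mean in 4 LV libraries (WT replicate 2 left out) and in 5 SkM libraries, the latter placed by their slow fibre sum from 174 to 2580.4 CPM, with lines joining the values of 1 gene (an aid to the eye) and Myh7 and Tnni1, genes of slow fibres, dotted in SkM. In LV most members were lowest in E0del/+ replicate 2, and in SkM Xirp1 spread the most, with an SD of 0.86 by CPM.

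Between E0del/+ and WT in LV, 0 of 13420 genes passed with edgeR (0%), and so 0 members, with 564 genes and 0 members at an unadjusted p under 0.05, and DESeq2 called 12 genes and 0 of the 9 members to which it gave an adjusted p (it gave Myot only an unadjusted one, 0.155). With the replicate number as a block 5 genes and 0 members passed, with 585 genes and 2 members at an unadjusted p under 0.05. Myot stood at 40.0 and 266 CPM in WT and at 54.9, 38.8 and 82.4 CPM in E0del/+. E0del/+ replicate 2 lay just under WT replicate 1 and far under WT replicate 2, with the other E0del/+ libraries between these, so the groups overlapped, and the log2 fold change was -1.47 (SE 0.68, adjusted p 0.997, E0del/+ above WT in batch 1 at a ratio of 1.37 and below it in batch 2 at 0.146). Without WT LV replicate 2 it was 0.59 (SE 0.40), and without WT replicate 1 it was -2.28 (adjusted p 0.00347, range over the alternatives 0.00347 to 1.00), the 1 member then called next to 578 genes. The sign changed with 1 library, the one with 39188 CPM of fast fibre transcripts.

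Further members changed sign with that library: Xirp2 went from -0.39 to 0.26, Cmya5 from -0.58 to 0.05, Nrap from -0.03 to 0.25 and Synpo from -0.02 to 0.12. Xirp2 illustrates it, at 603 and 1163 CPM in WT and 746, 453 and 914 CPM in E0del/+. The pairs of a batch also disagreed for several members, with ratios of E0del/+ to WT of 1.24 and 0.389 for Xirp2 and 1.25 and 0.362 for Cmya5. Synpo2 was level in batch 1 (1.00) and lower in batch 2 (0.314). Both batches went one way by CPM for Xirp1 (1.13 and 1.09), Synpo2l (1.23 and 1.13) and Flnc (0.997 and 0.727). After TMM the batches disagreed for each of these. In batch 2, E0del/+ then lay below WT for Xirp1 (278 against 309) and Synpo2l (167 against 179). In batch 1 it lay above WT for Flnc (913 against 875). Xirp1 (0.38, then 0.25), Nexn (0.09, then 0.11), Synpo2l (0.20, then 0.21), Flnc (-0.08, then -0.07) and Synpo2 (-0.71, then -0.17) kept their sign without WT LV replicate 2. Other settings turned Flnc (0.15 without E0del/+ replicate 2) and Nexn (-0.02 without E0del/+ replicate 3 and with the replicate block). Xirp1 came down to 0.06 without E0del/+ replicate 3 and to 0.03 with the replicate block. The CPM ranges of the genotypes were separate for 1 member, Synpo2l, at 225 and 207 CPM in WT and 276, 235 and 262 CPM in E0del/+, as they were, with E0del/+ higher, for 8.82% of genes (6.53% had E0del/+ lower). The exact permutation p for Synpo2l was 0.2, two-sided, where 2 against 3 mice allow 0.1 at the least, and the ranges overlapped after TMM.

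In SkM, 0 of 13154 genes passed with edgeR (0%), with 114 genes and 0 members at an unadjusted p under 0.05. DESeq2 called 0 genes as well, with 151 genes and 3 members at an unadjusted p under 0.05, and with the replicate block 1 gene and 0 members passed, with 596 genes and 3 members (Xirp1, Flnc and Nrap) at an unadjusted p under 0.05. The members with the largest differences were Xirp1 and Flnc. Xirp1 was at 189 and 118 CPM in WT and at 276, 525 and 137 CPM in E0del/+. E0del/+ replicate 3 lay between the WT values, so the groups overlapped, with a log2 fold change of 1.07 (SE 0.58, adjusted p 1.00) and ratios within batches 1 and 2 of 1.46 and 4.44. Flnc, at 1222 and 785 CPM in WT and 1562, 2373 and 1100.3 CPM in E0del/+, overlapped likewise at 0.78 (SE 0.37, adjusted p 1.00), with ratios of 1.28 and 3.02. Without E0del/+ replicate 2 these were 0.41 for Xirp1 and 0.40 for Flnc. Slow fibre transcripts placed the mice in the same order as Xirp1 on both scales and as Flnc by CPM only (after TMM 1371 in WT replicate 1 and 1375 in E0del/+ replicate 3), and their part was not tested.

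Nrap followed at 0.49 (SE 0.25) and Nexn at -0.28, and the other members lay between 0.08 (Xirp2) and 0.23 (Myot). Without WT replicate 2, Nexn was at 0.22 and Xirp2 at -0.17, and without WT replicate 1 Nexn was at -0.65. Synpo, at 0.18, went to -0.00 without WT replicate 1 and to 0.40 without WT replicate 2, so the signs of these 3 hang on single libraries. In WT SkM replicate 2 long genes also stood lower against short ones (-0.58), and the part of this was not tested. The CPM ranges were separate for 2 members, both higher in E0del/+, as for 4.14% of genes (7.31% had E0del/+ lower). Myot was at 864 and 758 CPM in WT against 937, 1021 and 882 CPM, and Synpo at 179 and 198 CPM against 213, 199 and 231 CPM. For each, the gap between the groups was narrow and the exact permutation p 0.2, two-sided. After TMM the ranges of Synpo overlapped, and those of Nrap and Flnc were separate. For Flnc they all but touched, at 1371 in WT replicate 1 and 1375 in E0del/+ replicate 3. The share of all genes with separate ranges after TMM was not computed. Within-library ratios gave no lower p than 0.1, the smallest possible, found in LV for Synpo2 over Synpo2l and for Flnc over Xirp1 (exact permutation, adjusted 0.25), with log2 differences of -0.91 and -0.45. Without WT LV replicate 2, an alternative chosen after seeing the data, these were -0.46 and -0.30, and with 1 WT library the smallest possible p is 0.25, so no test is given. None of the 5 lists of related genes held a gene that passed with edgeR in either tissue.

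**Figure D5:**
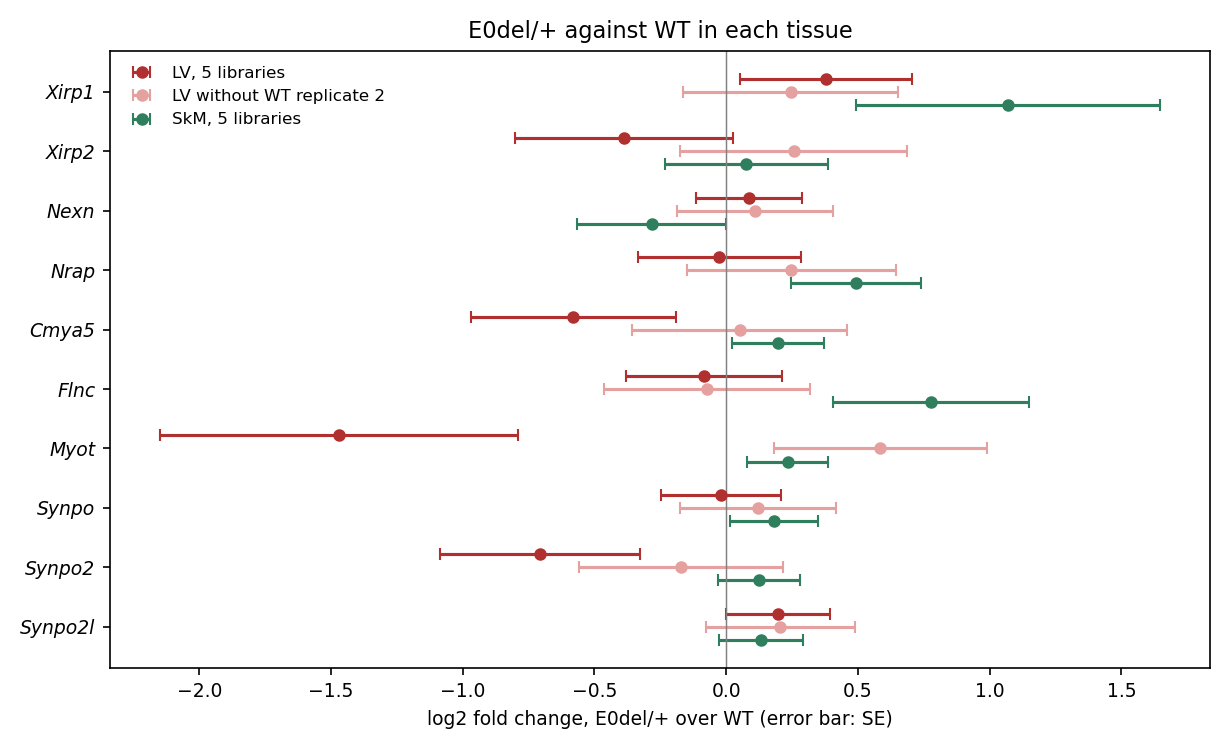
Log2 fold change of E0del/+ over WT for each member with its SE in LV, in LV without WT replicate 2, and in SkM. Myot moved from -1.47 to 0.59 when WT LV replicate 2 was left out, and Xirp1 in SkM stood at 1.07 with an SE of 0.58.

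Whether the genotype difference itself differed between SkM and LV was tested as an interaction over all 10 libraries. With edgeR 0 of 14327 genes passed (0%), with 477 genes and 0 members at an unadjusted p under 0.05, and DESeq2 was not run for it. Flnc had a log2 difference of 0.83 (SE 0.55, adjusted p 1.00). Myot came to 1.66 (SE 0.93), and to -0.39 without WT LV replicate 2.

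By likeness of pattern over the 9 libraries other than WT LV replicate 2, measured as the root-mean-square difference of centred log2 CPM among 8602 genes, Myot was closest to Jph1, the junctophilin of skeletal T-tubule junctions (0.14), and to Scn4b (0.27). Xirp2 and Cmya5 shared Epdr1 as their closest gene (0.18 and 0.15), followed by Egf (0.21) and Setd7 (0.15). Synpo2 was closest to Wwp1 and Hif1an (0.13 each), and Nrap to Rrp12 and Usp24 (0.16 each). Nexn (Cisd1 0.05, Glrx5 0.07), Synpo (Mtmr3 0.06, Tlk2 0.08) and Synpo2l (Mybbp1a and Golga4, 0.07 each) had close matches, at differences under those of the other members. The measure is not scaled to the spread of a gene, so genes that vary little can lie close by that alone. Flnc was nearest to Tacc2 and Ankrd33b (0.21 each), and Xirp1 had the most distant ones, Ern1 (0.35) and Hspb1 (0.38), the latter a small heat shock protein of the chaperone list.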

How the data were processed

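RNA-Seq of LV and SkM from 5 mice was taken as deposited: per gene, the authors gave raw read counts, exon positions and summed exon length. The deposited RPKM values equalled the same counts scaled to summed exon length and library total, within a relative tolerance of 1e-06, for all 23337 genes. The submitters name STAR, DESeq2 and mm10, and counting software and annotation are not given in the sources used here. The members and all lists were chosen with earlier results of these data known.

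CPM were computed on library totals. Tests used edgeR 4.0.16 in R 4.3.3 (quasi-likelihood, filterByExpr, TMM) over all genes, p-values adjusted by Benjamini-Hochberg and called under 0.05, and DESeq2 1.42.0 (Wald test) as the other tool. Both were tested on simulated data. Tissues were compared over 8 libraries of 4 mice with the mouse as a block, genotypes over 5 libraries per tissue. Where leaving out a mouse left 1 WT library, it was assumed to vary like the E0del/+ ones. The SE is the log2 fold change over the root of the F statistic. Single ratios used exact permutation. Alternatives were other scalings, tools, filters and blocks, and leaving out each mouse or library.

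The labels tie LV and SkM to a mouse, and WT and E0del/+ to a batch by the replicate number. Across genes of at least 10 CPM, deviations from group means after TMM of WT and E0del/+ of the same replicate correlated at 0.0196 and -0.122 in LV and 0.356 and 0.167 in SkM, and genes are not independent replicates. With 2 WT libraries per tissue, their deviations mirror each other, so the values of a tissue are not separate checks. Those in LV also rest on WT LV replicate 2.

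Named were all 10 members, the 3 genes of highest mean CPM in each of 5 lists, and the 2 nearest genes by likeness (prior count 2). Cell type marker lists not described with the results summed as follows. The 5 slow fibre genes gave 14317 to 20666 CPM in LV, where Atp2a2 and Myh7 are heart genes too, and the 4 fibroblast genes (Col3a1 highest by the mean) 113 to 381 CPM in SkM. By the mean in LV and SkM the highest were Csf1r and Ptprc of 4 leukocyte genes, and Pax7 and Chodl of 3 satellite cell genes. The leukocyte genes gave 7.26 to 93.6 CPM and the satellite cell genes 0 to 8.13 CPM. The 4 Schwann cell genes gave 14.3 to 30.0 CPM in LV. Of 5 blood genes 3 were in the tables, 2 of these at 0 throughout, and Alas2 gave 2.52 to 31.6 CPM.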

Additional observations from a re-analysis of the deposited data

Results flagged for a closer look

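Myot stood at 266 CPM in WT LV replicate 2, far from the other 4 LV libraries, which ran from 38.8 to 82.4 CPM: the gap was 0.808 of the whole range, above Dixon's critical value of 0.71. Of 20 groups of 5 libraries examined, 1 held such a sample, and chance flags about 1 in 20. The fast fibre sum of that library was 39188 CPM, and its part was not tested.

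For Flnc, E0del/+ lay below the WT of its batch in LV in both batches (ratios of 0.997 and 0.727) and above it in SkM (1.28 and 3.02). These ratios are by CPM, and after TMM the pattern was lost, with E0del/+ at 913 and WT at 875 in the LVs of batch 1. The fitted log2 difference of the genotype effect was 0.83, which did not pass in the interaction test (adjusted p 1.00), and the pattern by batch was itself not tested.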

How the results depend on the processing

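Between tissues, the members' log2 fold changes kept their direction in 116 of 120 alternative values. Xirp2, Nrap, Cmya5, Myot and Synpo2 passed in all 13 settings, Synpo and Synpo2l in 12 and Flnc in 11. By total counts Nexn was called lower, at -0.64. In LV genotype, 108 of 120 values kept their direction, in SkM 116 of 120 and for the interaction 28 of 30. The count of members called in LV, 0, ranged from 0 to 1 when leaving out 1 library. The count of genes, also 0, became 12 by DESeq2 and 5 with the replicate block, and ranged from 0 to 578 on leaving out 1 library. In SkM the count of genes became 1 with the replicate block. Of alternatives chosen after seeing the data, leaving out WT LV replicate 2 moved the genotype difference in LV of Xirp2 over Xirp1 from -0.69 to -0.00, Synpo2 over Synpo2l from -0.91 to -0.46, Flnc over Xirp1 from -0.45 to -0.30 and Nexn over Myot from 1.03 to -0.39. Total counts moved the members with a larger SD than 95% of genes in LV from 7 to 3, and TMM moved the members in the order of the slow fibre sum from 5 to 1. The cause was not tested. With 2 WT mice, exact tests of single values cannot fall below 0.1.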
